A study of Brassica napus with 8 samples.

Results

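The genes described here were detected in seed of rapeseed (Brassica napus, a crop grown for seed oil whose genome joins an A and a C subgenome) after 48 h of germination and stayed below a low limit in dry seed, 50 DPA seed and young leaf. They were chosen from the deposited TMM table, whose values are CPM, counts scaled to a common library total, adjusted by TMM. TMM is a trimmed mean method that scales libraries as if the bulk of genes were unchanged. A gene had to reach at least 2 CPM in both germinating seed libraries and stay below 1 CPM in each of the 6 other libraries. Of 106059 listed gene IDs, 880 met these limits, and the 200 with the highest mean in germinating seed, with ties broken by ID, are the members. All 8 columns were used in this choice, so the levels of the members and their differences from the other tissues are given as a description and support nothing by themselves.

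The 4 tissues of the cultivar Zhongshuang 11 were sequenced as polyadenylated RNA, with 2 libraries each: seed germinated for 48 h, dry seed, seed labelled 50 DPA (an abbreviation the labels do not spell out) and young leaves. Per the labels, the plants for crop organs stood under normal farm management at Wuhan and those for vegetative tissues in greenhouses, while the conditions of germination are not given. No transgene, mutation or treatment is recorded for any group. Whether both libraries of a tissue trace back to different plants is not in the labels, so every spread between them may be technical. Counts were also deposited for the other tissues without germinating seed, and whether its libraries were made together with theirs is not given. A batch of the germinating seed libraries therefore cannot be told apart from the tissue. Each library is a bulk sample, in which fewer cells of a type and less RNA per cell cannot be told apart. Total counts were 55721357 and 40730533 in germinating seed, and from 27635445 to 36535168 in the 6 other libraries. A value of 1 CPM stood for 55.4 to 73.2 counts in germinating seed, 24.1 to 31.6 in dry seed, 23.6 to 25.4 in 50 DPA seed and 42.6 to 44.3 in young leaf.

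A dry seed holds stored messenger RNA from maturation and is nearly inactive. After water uptake, a seed resumes transcription, its root tip grows out through the seed coat, walls of growing cells are loosened, and stored oil and protein are broken down to feed the seedling. In the mustard family these steps are promoted by gibberellin and held back by abscisic acid. None of the 106059 IDs matched the gene table used here (0 matches), which describes another rapeseed assembly, and no file here gives names to the IDs. The roles of the members, the sequences and any check of the tissue labels against marker genes are therefore not given, and lists by product name were not applied. CPM values are not divided by transcript length, so a value may be compared between libraries for the same gene, whereas the order of different genes follows transcript length as well as abundance.

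The members were a small part of the transcripts of germinating seed. They took 1.09% of all counts in germinating seed library 1 and 1.13% in library 2, whereas all 880 genes within the limits took 1.48% and 1.54%. The mean of a member in germinating seed ran from 10.6 to 483.4 CPM with a median of 20.4 CPM, and the quartiles were 14.01 and 46.4 CPM. A mean of at least 100 CPM was found for 16 members, 50 to 100 CPM for 27, 20 to 50 CPM for 58, and under 20 CPM for 99. The 10 highest members held 29.02% of the summed CPM of all 200, and the 50 highest held 64.1%. Counts behind these values ran from 518 to 40101 per library, so counting error was small for every member in germinating seed. At or above the mean of the last member stood 14953 genes in all, of which the members were 1.34%. Among the 100 genes with the highest CPM in germinating seed, 2 were members, and among the highest 1000, 13 were.

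**Figure D1:**
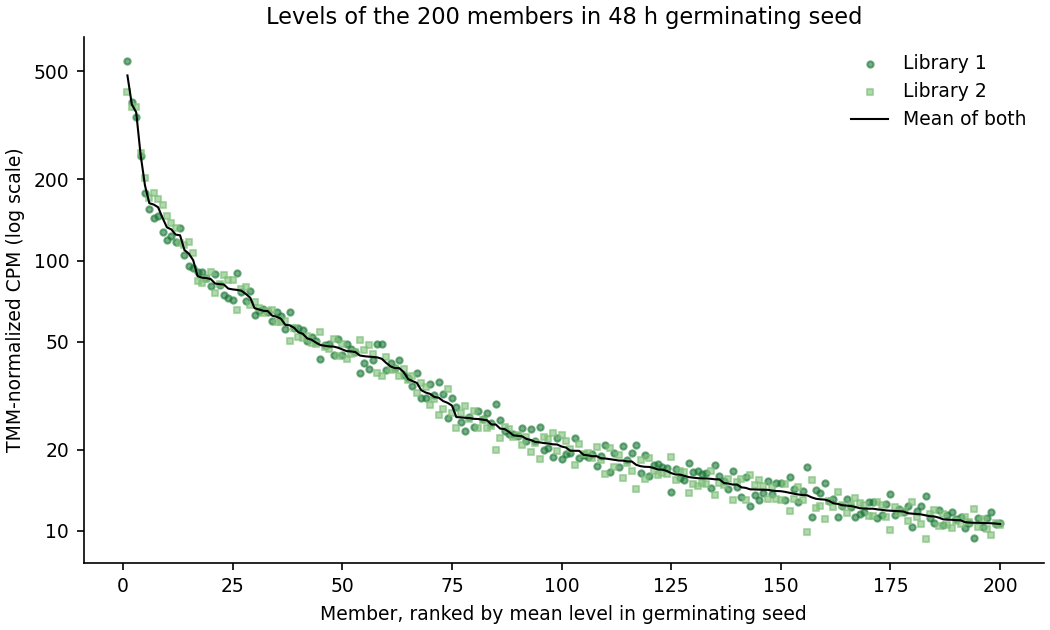
TMM-normalized CPM in 48 h germinating seed (log scale) against the rank of each of the 200 members, with circles for library 1, squares for library 2 and a line for their mean. The means fall steeply over the first 16 members, which are at 100 CPM or more, and then slowly to 10.6 CPM, and the symbols of both libraries lie close to the line.

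ZS11A08G006730 had the highest mean of all members. Its values were 548.1 and 418.6 CPM in germinating seed, against 0 and 0.0828 CPM in dry seed, 0.423 and 0.394 CPM in 50 DPA seed and 0.0235 and 0 CPM in young leaf. The values outside germinating seed stood for 0 and 2 counts in dry seed, 10 and 10 in 50 DPA seed and 1 and 0 in leaf. This gene ranked 61 among all genes of germinating seed by CPM, and its germinating libraries differed more than those of the next genes. ZS11C03G040040 followed with 384.9 and 370.9 CPM in germinating seed, against 0 and 0 in dry seed, 0.0846 and 0.0788 CPM in 50 DPA seed and 0 and 0 in young leaf. Its mean of 377.9 ± 9.87 CPM (SD, n = 2) was at least 1725-fold higher than dry seed and at least 2736-fold higher than young leaf. These bounds set a library without counts at a floor of 3 read pairs, or 6 counts, in each library, and allow for counting error alone. ZS11A05G000230 had 338.1 and 368.03 CPM in germinating seed, against 0 and 0 in dry seed, 0.254 and 0.866 CPM in 50 DPA seed and 0 and 0 in young leaf. The gene next in order, ZS11C01G059470, likewise had counts in 50 DPA seed alone outside germination, at 243.3 and 249.5 CPM in germinating seed, against 0 in both dry seed libraries, 0.507 and 0.315 CPM in 50 DPA seed and 0 in both leaf libraries.

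ZS11A04G004830, ZS11A09G038000 and ZS11A09G021180 were the members among the 10 highest that had 0 counts in all 6 other libraries. ZS11A04G004830 had 155.2 and 170.6 CPM, from 11352 and 9453 counts. ZS11A09G038000 had 146.2 and 168.5 CPM, from 10697 and 9336 counts. ZS11A09G021180 had 119.2 and 146.1 CPM, from 8718 and 8095 counts. Their levels thus stood at least 743.2-fold, 718.003-fold and 605.2-fold higher in germinating than in dry seed, in that order of genes. For the other 3 of the 10, traces appeared in more than one tissue. ZS11C02G000640 had 177.9 and 201.1 CPM in germinating seed, against 0 and 0.0828 CPM in dry seed, 0.761 and 0.709 CPM in 50 DPA seed and 0.0939 and 0 CPM in young leaf. ZS11A02G008210 had 143.96 and 178.04 CPM in germinating seed, against 0 and 0 in dry seed, 0.169 and 0.709 CPM in 50 DPA seed and 0.376 and 0.722 CPM in young leaf. ZS11C06G051030 had 127.1 and 160.6 CPM in germinating seed, against 0 and 0.166 CPM in dry seed, 0.169 and 0.394 CPM in 50 DPA seed and 0.235 and 0.451 CPM in young leaf. Of the 10 genes, 7 had counts in both 50 DPA seed libraries, 2 in both leaf libraries and 0 in both dry seed libraries.

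**Figure D2:**
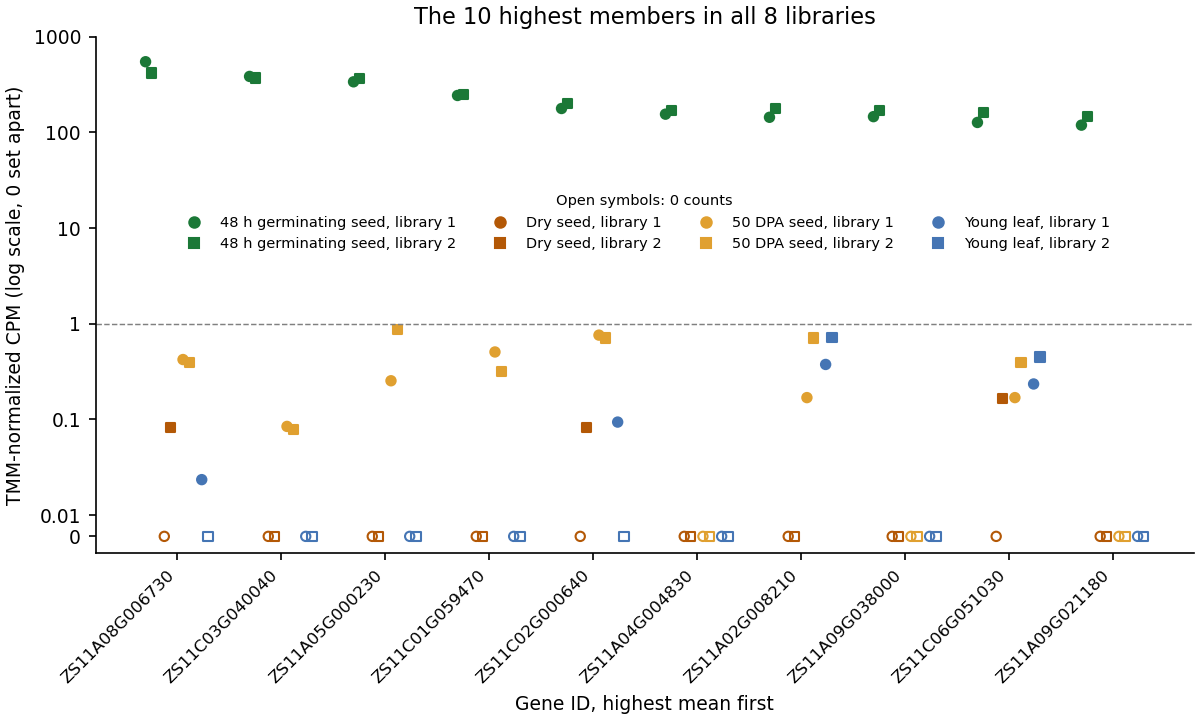
TMM-normalized CPM (log scale, with 0 set apart at the foot) of the 10 highest members in all 8 libraries, with colours for tissues, circles for library 1 and squares for library 2; the dashed line is the limit of 1 CPM. Germinating seed lies at 119.2 CPM or more for every gene shown, and among the other tissues 50 DPA seed carries traces in 7 of the 10 genes.

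Being without any count outside germinating seed was not the rule among the members, so "detected only" holds in the sense of the limits. In all 6 other libraries, 62 of the 200 members (31%) had 0 counts, and 138 had at least 1 count somewhere. Dry seed was the emptiest tissue: 156 members had no count there, against 125 in 50 DPA seed and 96 in young leaf. Sets formed by the same limits for 50 DPA seed and young leaf, given below, were also emptiest there. The order is thus not read as a trait of the members. Counts in both libraries of the tissue were seen for 20 members in dry seed, 38 in 50 DPA seed and 70 in young leaf. Over 6 counts in both libraries were seen for 9, 14 and 35 members, in the same order of tissues. The summed level of all 200 members was 8283 and 8311 CPM in germinating seed, against 9.93 and 8.28 CPM in dry seed, 16.2 and 15.8 CPM in 50 DPA seed and 22.4 and 24.9 CPM in young leaf. Relative to the germinating mean, these sums were at most 0.120% in dry seed, 0.196% in 50 DPA seed and 0.300% in young leaf. A value of 1 CPM stood for more counts in leaf than in dry or 50 DPA seed, and the part of this in the numbers of genes without counts was not tested.

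**Figure D3:**
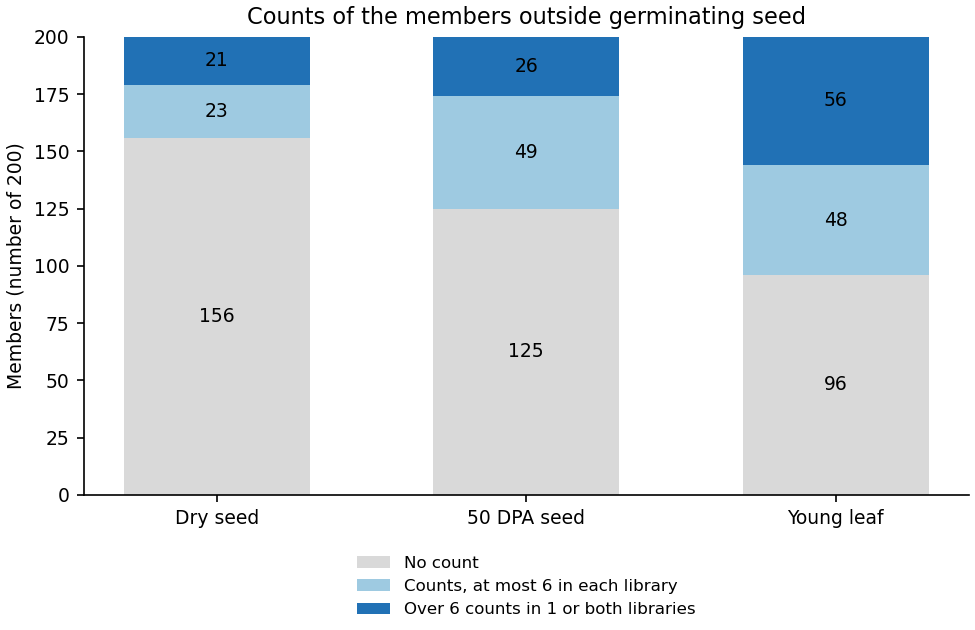
Number of the 200 members (vertical axis) without counts, with at most 6 counts in each library, or with over 6 counts in 1 or both libraries of dry seed, 50 DPA seed and young leaf. The part without counts shrinks from 156 members in dry seed through 125 in 50 DPA seed to 96 in young leaf.

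Many members had their trace in 1 tissue alone. Of the 138 members with counts elsewhere, 47 had them in young leaf alone, 19 in 50 DPA seed alone and 7 in dry seed alone, while 20 had counts in all 3 other tissues. By mean CPM the trace was highest in young leaf for 70 of them, in 50 DPA seed for 45 and in dry seed for 23. ZS11C07G054470 came closest to the limit from below, with 13.2 and 11.7 CPM in germinating seed, against 0 and 0 in dry seed, 0 and 0.0788 CPM in 50 DPA seed and 0.658 and 0.993 CPM in young leaf. ZS11A08G015620 came next, with 16.4 and 18.3 CPM in germinating seed, against 0 and 0 in dry seed, 0.931 and 0.473 CPM in 50 DPA seed and 0.141 and 0.226 CPM in young leaf. Neither gene overlapped between germinating seed and any other tissue, as the limits require.

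The limits themselves fell in the middle of a continuous range. ZS11C03G034690, the last member, had 10.7 and 10.5 CPM in germinating seed and 0 counts elsewhere, and ZS11C09G024850, the first gene left out, had 11.6 and 9.56 CPM and also 0 counts elsewhere. Just outside the limit of 1 CPM stood ZS11A08G009350, with 25.9 and 31.7 CPM in germinating seed, against 0 in all 4 libraries of dry and 50 DPA seed and 1.06 and 0.790 CPM in young leaf. ZS11A04G027040 stood as close, with 29.5 and 25.6 CPM in germinating seed, against 0.822 and 0.663 CPM in dry seed, 1.06 and 0.945 CPM in 50 DPA seed and 0.470 and 0.429 CPM in young leaf. At the level of the members, 45 genes had their highest value elsewhere from 0.5 to under 1 CPM and are members, and 88 had it from 1 to under 2 CPM and are not. That highest value lay in leaf for 20 of the 45 and 40 of the 88, in 50 DPA seed for 18 and 31, and in dry seed for 7 and 17. The 680 genes within the limits but below the 200 highest had means down to 2.05 CPM with a median of 3.70 CPM. Of these lower genes, 163 (24.0%) had no count in the other 6 libraries.

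All 200 members passed edgeR's filter on low counts and were called higher in germinating seed than in each of the other tissues (adjusted p under 0.05 in edgeR's quasi-likelihood test). Among all 59062 genes tested, 44.9% were higher in germinating than in dry seed, 39.4% higher than in 50 DPA seed and 32.7% higher than in young leaf. The limits fixed these calls, so nothing is read from them. With every mean raised to at least the floor of 6 counts per library, the median member was 91.6-fold higher than dry seed, 81.4-fold higher than 50 DPA seed and 130.9-fold higher than young leaf. On the log2 scale these medians were 6.52, 6.35 and 7.03, against medians of 0.21, 0.10 and -0.09 over all genes tested, treated the same way. The lowest member ratio was 18.5 over dry seed, 24.7 over 50 DPA seed and 15.1 over leaf. For 185, 175 and 149 members, in that order of tissues, the mean in the other tissue was under the floor, and their ratios were taken against the floor.

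Among the tissues in which members are nearly silent, calls were fewer than among all genes. Between dry and 50 DPA seed, 11 members were higher in dry seed and 26 lower (edgeR quasi-likelihood test, adjusted p under 0.05), which is 5.5% and 13% of the members, against 26% and 33.8% of all genes tested. The 26 lower ones had a median of 0 CPM in dry seed and 0.410 CPM in 50 DPA seed. Between dry seed and young leaf, 14 members were higher and 54 lower in dry seed, against 30.9% and 46.7% of all genes. The 54 lower ones had a median of 0 CPM in dry seed and 0.277 CPM in young leaf. Between 50 DPA seed and young leaf, 23 were higher and 36 lower in 50 DPA seed, against 30.9% and 38.8% of all genes. No count in either tissue was seen for 109 members in the first of these comparisons, 81 in the second and 69 in the third, and the limit of 1 CPM caps every level. Some calls rest on levels under the floor of 6 counts, such as that of ZS11C03G040040, with 2 and 2 counts in 50 DPA seed and none in dry seed or leaf. The calls and their low shares are therefore not read as a result about the members. On log2(CPM + 1) by limma, which weights such low values less, the calls were 21, 33 and 38 in place of 37, 68 and 59.

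The germinating seed libraries differed little for most members. The log2 ratio of library 1 over library 2 had a median of 0.01 and an SD of 0.22, and 196 of the 200 lay within 0.5. The 14693 other genes in the same range of means had a median of 0.04 and an SD of 0.17, and 99.2% of them lay within 0.5. The median absolute log2 ratio was 0.161 for the members and 0.112 for those genes. The members thus differed somewhat more between the libraries than the other genes in that range. Levels were not matched within the range, and the difference was not tested. Log2 levels of the members correlated between these libraries with Pearson's r of 0.984 over 200 genes. The largest ratios belonged to ZS11A05G002730, with 17.2 and 9.93 CPM, and ZS11A03G050210, with 29.6 and 19.96 CPM, both without counts in the other 6 libraries. At the other end, ZS11C03G044570 had 11.3 and 15.4 CPM and ZS11A01G001240 had 13.97 and 18.8 CPM. Members at 100 CPM or more, a split that was not planned, mostly leaned to library 2. The highest of them, ZS11A08G006730 and ZS11C03G040040, leaned to library 1, with log2 ratios of 0.389 and 0.0533. Of the 16 members at 100 CPM or more, 3 were higher in library 1, with a median log2 ratio of -0.17. In contrast, 101 of the 184 lower members were higher in library 1, with a median of 0.03. Among the 1082 other genes from 100 CPM up to the highest member, 66.6% were higher in library 1, with a median of 0.06. This difference between higher and lower members was not tested.

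**Figure D4:**
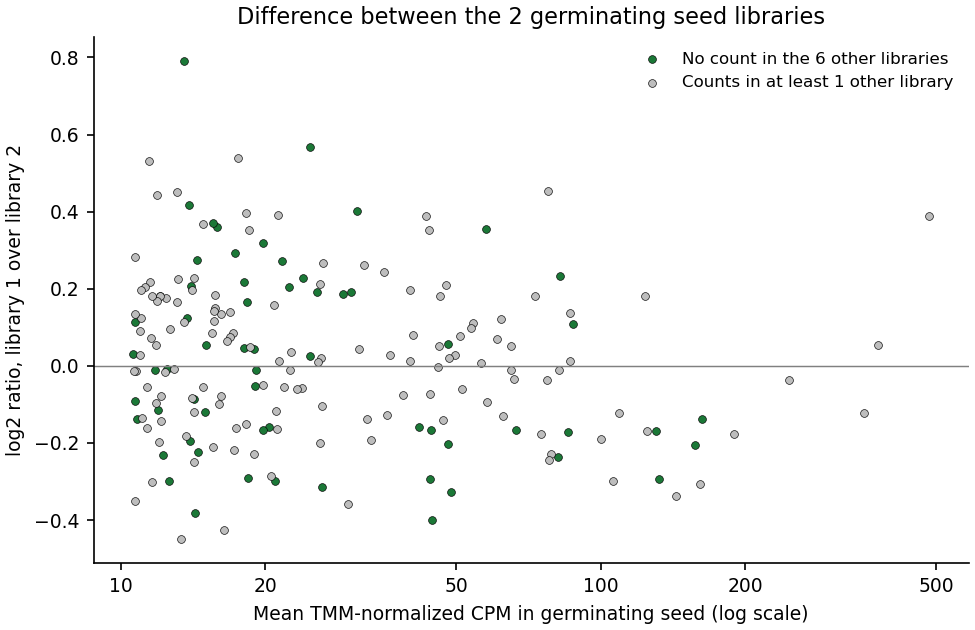
Log2 ratio of germinating seed library 1 over library 2 against the mean TMM-normalized CPM (log scale) of each of the 200 members, with green points for the 62 members without counts elsewhere and grey points for the other 138. Most points lie within 0.5 of 0, and 13 of the 16 at 100 CPM or more lie below 0.

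By the chromosome prefix in the ID, the members were spread over all 19 chromosomes, with 103 on the A subgenome and 97 on the C subgenome. The A share was 51.5% of the members (exact binomial 95% interval 44.3% to 58.6%, for counting error only) and 51.7% of all 880 genes within the limits. It was 48.3% of the 33344 genes with at least 2 CPM in both germinating libraries, 49.9% of the genes at or above the level of the last member, and 41.8% of all listed genes. By these values the members' share lay closer to that of genes in use in germinating seed than to that of all listed genes. The interval takes members as independent, whereas neighbouring IDs may be copies, so nothing is read from it, and the differences were not tested. A and C members were alike in level, with medians of 21.3 and 19.8 CPM, and 32 and 30 of them were without counts elsewhere. Chromosome A09 held 20 members and A03 held 19, followed by C03 with 16, while A04 held 5. Per 1000 genes with at least 2 CPM in germinating seed, A09 had 8.80 members and C05 had 3.83. Along the ID order of the chromosomes, 54 members (27%) fell in the first of 5 equal parts and 30 to 40 in each later part. Of the genes at or above the level of the last member, the parts in order held 22.1%, 18.2%, 17.5%, 19.8% and 22.5%. The members' shares were 27%, 15%, 20%, 18% and 20%, and these differences were not tested.

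**Figure D5:**
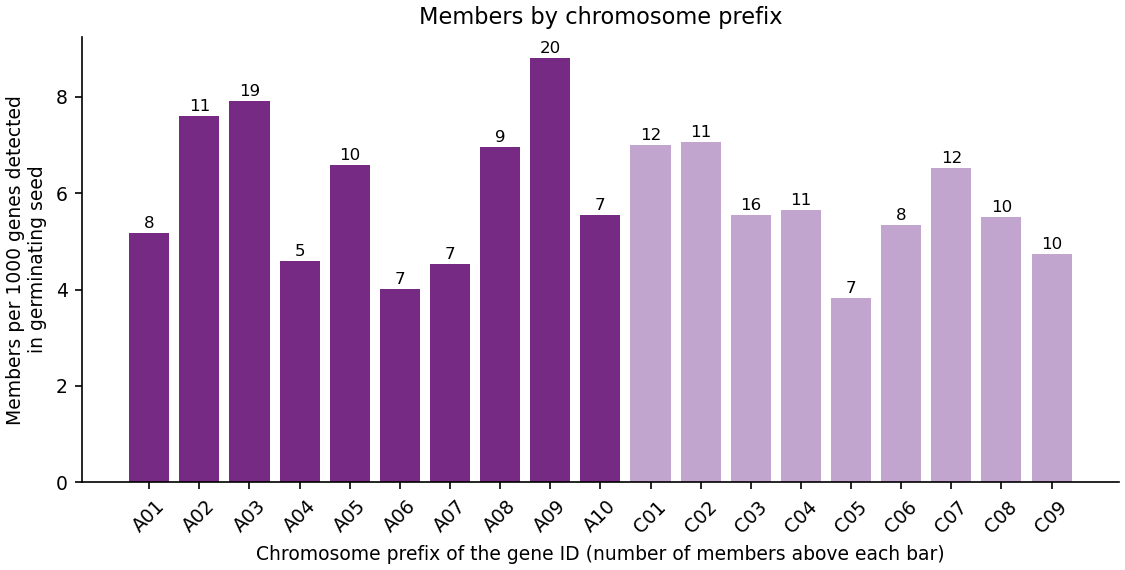
Members per 1000 genes with at least 2 CPM in both germinating seed libraries (vertical axis) by chromosome prefix of the ID, with dark bars for the A and light bars for the C subgenome and the number of members above each bar. The bars run from 3.83 on C05 to 8.80 on A09, and no chromosome is without members.

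In all, 6 members lay directly beside another member in the ID order, as 3 pairs. In the sets of 200 formed by the same limits for the other tissues, given below, 7 genes did so for dry seed, 0 for 50 DPA seed and 0 for young leaf. Of all genes within the limits, the share was 5.57% for germinating seed, 6.07% for dry seed, 4.06% for 50 DPA seed and 9.21% for leaf. These differences were not tested. ZS11A09G021180 and ZS11A09G021190 were both without counts in the 6 other libraries, and the second had 38.4 and 50.7 CPM in germinating seed. Both were lower in library 1 than in library 2. ZS11A03G048880 had 76.3 and 78.2 CPM in germinating seed, against 0 in all dry and 50 DPA seed libraries and 0.705 and 0.541 CPM in young leaf. Its neighbour ZS11A03G048890 had 49.1 and 37.5 CPM in germinating seed, against 0 in the same seed libraries and 0.799 and 0.902 CPM in young leaf. The pair thus shared a trace in leaf. ZS11A01G018860 had 26.1 and 33.5 CPM in germinating seed, with 4 counts in dry seed library 1 and none elsewhere, and ZS11A01G018870 had 13.8 and 14.6 CPM and no count elsewhere. Neighbouring IDs can be near-identical tandem copies, and how reads shared by copies were assigned is not given, so the split of a level within a pair is uncertain. With up to 5 other IDs allowed between members, 14 members fell in 7 pairs. One of these joined ZS11A09G037970, at 39.7 and 48.6 CPM, with ZS11A09G038000, and another joined ZS11A04G004870, at 39.5 and 44.1 CPM, with ZS11A04G004830, and all 4 of these genes had 0 counts elsewhere.

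Genes next to a member but not members themselves were described in the same way, and members are left out of the sets they are set against. Of 393 such neighbours, 141 (35.9%) had at least 2 CPM in both germinating seed libraries, against 39.4% beside the other genes at or above the level of the last member and 31.5% of all genes with a chromosome prefix. Of the 393, 11 (2.80%) were within the limits as well but under the 200 highest, against 0.828% beside those other genes and 0.645% of all genes with a prefix. Of the 240 neighbours that could be tested, 60 (25%) were called higher in germinating seed than in each other tissue (edgeR quasi-likelihood test, adjusted p under 0.05). The share was 14.7% of the 58748 tested genes with a prefix, and 15% of all 59062 genes tested when members are included. Beside the other genes at or above the level of the last member, the share was 16.6% of 17387 tested neighbours. These shares are descriptions of genes that may be copies of each other, and their difference was not tested. The longest row of neighbouring genes within the limits, named here after its values were seen, held 5 IDs from ZS11C03G085800 to ZS11C03G085840. Germinating seed means in the row were 3.32, 3.85, 8.33, 5.60 and 14.3 CPM, and none of the 5 had a count in any of the 6 other libraries. The last of them, ZS11C03G085840, is the member of the row, at 12.4 and 16.1 CPM.

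Sets formed by the same limits for the other tissues differed in size and in their traces elsewhere. Within the limits were 880 genes for germinating seed, 379 for dry seed, 1010 for 50 DPA seed and 2129 for young leaf, which is 2.64%, 1.39%, 3.21% and 5.89% of the genes with at least 2 CPM in both libraries of the tissue. The lowest mean among the 200 highest was 10.6 CPM for germinating seed, 4.40 CPM for dry seed, 19.8 CPM for 50 DPA seed and 41.4 CPM for young leaf. Without counts in the 6 libraries of other tissues were 62 of the 200 for germinating seed, 6 for dry seed, 37 for 50 DPA seed and 32 for young leaf. Of the 200 for young leaf, 145 lacked counts in dry seed, against 93 in 50 DPA seed and 56 in germinating seed. Of the 200 for 50 DPA seed, 118 lacked them in dry seed, against 100 in leaf and 73 in germinating seed. The sets differ in level, and the deepest libraries are those of germinating seed, in which genes of the other sets could show a trace. These differences between the sets were not tested.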

How the data were processed

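The authors deposited whole-number counts per gene ID and a TMM-normalized signal for 8 libraries. The kit was Illumina TruSeq and reads were paired, 150 bases long, per the labels' protocols. The submitters' processing notes name edgeR, SAMtools, HISAT2 and FastQC without versions. Read counter, annotation and build were not given in the sources used here. Tested on the files, each signal value is the deposited count times 1 constant per library to within 0.00326, and 1 line of the count table that names no gene was removed. Among counts above 0, 80.5% to 85.4% per library were even, as when each mate adds 1 count, so counting error is larger than the counts imply. Counts of the 3-tissue and 4-tissue tables differed in 0 values.

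Members were found on the deposited signal. The comparisons were fitted on the counts of all 8 libraries with edgeR 4.0.16 (R 4.3.3): filterByExpr, TMM factors, 1 mean per tissue, quasi-likelihood test, 2-sided, Benjamini-Hochberg adjustment over 59062 genes, threshold 0.05. Alternatives were DESeq2 1.42.0, limma 3.58.1 on log2(signal + 1), other scales, filters and limits, and leaving out each library. Genes named are the 10 highest members, the runs of neighbouring IDs, the extremes of the library ratio and the genes at the limits, with additions said to be such. The members, lists and tests were chosen with earlier results of these data known. TMM factors assume that most genes do not change, whereas most genes tested were called changed between every pair of tissues, germinating seed included. Levels are therefore relative to this scale.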

Additional observations from a re-analysis of the deposited data

How the results depend on the processing

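Halved counts and the use of the 3-tissue table for the limits were added after the data were seen. Of 157 alternative values of the counts and shares reported, 148 stayed within their margin (1.5 times for a count). These include the calls of germinating seed against each other tissue, which the limits fixed, so the total is no measure of stability. Counts of calls joined higher and lower ones, so a change of direction would not show in them. Of 40 alternative values for the levels of the 10 highest members, 28 stayed within the SD of the germinating libraries and 12 moved. On CPM by total counts alone each of the 10 levels moved up, as for ZS11A08G006730 from 483.4 to 644.6 CPM. Within the limits were 1694 genes with 2 CPM allowed elsewhere, 1646 with 1 CPM asked of germinating seed and 366 with 5 CPM, as wider or narrower limits must give. On CPM by total counts alone, 1143 genes were within them, and 188 of its 200 highest were members. limma on log2(signal + 1) called 21 members between dry and 50 DPA seed, 33 between dry seed and leaf and 38 between 50 DPA seed and leaf, a scale on which values under 1 are compressed. Members beside another member numbered 14 with up to 5 IDs between, 49 among all 880 genes, and 6 to 10 with 1 library left out at a time, the 10 without germinating seed library 2. With the replicate block, 35, 66 and 58 members were called in the 3 comparisons among the other tissues. Each comparison of germinating seed kept 200, and the block changed no other call by over 1.5 times. Deviations of same-numbered libraries correlated between -0.0231 and 0.00901 over genes, so no shift shared by same-numbered libraries was seen. Such low values do not settle whether these libraries share a plant or a batch. DESeq2's own test called 197, 193 and 198 members higher than dry seed, 50 DPA seed and leaf. Members without any count elsewhere numbered 87 when 1 read pair per library was allowed. A library without counts does not exclude a level of up to about 6 counts, 0.138 CPM in leaf to 0.245 CPM in 50 DPA seed.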
